A study of Rattus norvegicus with 311 samples.

Results

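Phenobarbital at 10 mM was compared with ketoconazole at 30 µM in cultured rat hepatocytes, probe by probe across the whole assay. The libraries were those whose column names give these compounds and doses and which hold at least 500000 counts, 45 of the 311 libraries in the series: 22 with phenobarbital and 23 with ketoconazole. A further ketoconazole library, from monoculture on day 7 on plate 1, held 412414 counts and was left out. The 24 vehicle libraries of the same days and cultures gave the background.

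All 3 groups came from male Sprague Dawley rats, with primary hepatocytes grown alone (monoculture) or with non-parenchymal liver cells (co-culture) on collagen-coated plates. The compound was present for the 24 hours before the wells were lysed on day 1, 3 or 7 after plating. There were 8 phenobarbital, 8 ketoconazole and 8 vehicle libraries on day 1, 6, 8 and 8 on day 3, and 8, 7 and 8 on day 7. Each day was split between the cultures and over plates 1, 3, 5 and 7, and phenobarbital had no plate 3 on day 3. The labels call the replicates biological without tying them to separate animals. The p-values reflect the variation among wells left after average differences between plates were taken out, part of which may be technical. Monoculture and co-culture wells of the same plate and day count as separate libraries. Some differences between the compounds went with the plate in both cultures, so p-values and counts of matched pairs may overstate the replication. Both doses are the highest of their series and differ in concentration, so the comparison is one of treatments and not of matched doses. The labels conflict for phenobarbital: in monoculture its libraries carry ketoconazole in the chemical field, and its dose field reads µM where the design text gives mM. The column name decided the compound here, and in co-culture both fields name the same compound.

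RNA was measured with TempO-Seq, in which pairs of detector oligonucleotides are ligated on a target transcript and counted, so only targeted genes have values. Totals ran from 3008467 to 9485535 counts in phenobarbital libraries, from 2662199 to 9304159 in ketoconazole libraries and from 3392976 to 10820668 in vehicle libraries. The 50 most abundant probes held a median of 25.2% of counts with phenobarbital, 29.8% with ketoconazole and 30.8% with vehicle on day 1. The medians were 27.2%, 30.6% and 33.0% on day 3 and 19.4%, 26.5% and 20.9% on day 7. The hepatocyte product Alb, serum albumin, averaged 2859 CPM (counts scaled to a common library size) with phenobarbital, 2347 CPM with ketoconazole and 4177 CPM with vehicle. One matched pair of wells stood apart. On day 7 in co-culture on plate 1, the phenobarbital and ketoconazole libraries correlated at 0.974 with each other, against 0.675 to 0.915 for the other 6 pairs of that day. They correlated at 0.959 and 0.927 with the vehicle library of the same plate, which goes against their labels, and results that rest on them are given with and without both. In 4 other libraries, 3 with ketoconazole and 1 with phenobarbital, the median correlation with their own group was under 0.7.

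Phenobarbital is the classical inducer of hepatic drug metabolism. It activates the constitutive androstane receptor CAR indirectly, and CAR together with the pregnane X receptor PXR switches on cytochrome P450 genes of the Cyp2b and Cyp3a families, conjugating enzymes and transporters. Ketoconazole is an azole antifungal that binds the haem of cytochrome P450 enzymes, including Cyp51, the lanosterol demethylase of cholesterol synthesis. When sterols run low in the endoplasmic reticulum, the escort protein Scap carries the factor Srebp-2 to the Golgi, where it is cleaved and then turns on genes of the mevalonate arm and the sterol ring enzymes. Protein-folding stress and amino acid shortage act through the kinases of the integrated stress response, whose factor Atf4 induces Ddit3, Trib3 and Chac1, while Xbp1 and Atf6 raise chaperones of the endoplasmic reticulum.

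Promoter windows of 300 bases around the gene start were searched for short motifs on both strands in RefSeq sequences of the build GRCr8. The CCAAT box (CCAAT), the element bound by the factor NF-Y, was present in 17 of 22 windows of sterol genes (77.3%) and in 17 of 17 windows of chaperone genes of the endoplasmic reticulum (100%), against 37.7% of all 27457 windows. The 22 are the matched members of 30 genes of 3 sterol lists, and the 17 are the matched members of 20 chaperone genes. The amino acid response element (TGATGNAA), the Atf4 site, was in 5 of 18 windows of the integrated stress response list of 19 genes (27.8%), against 3.82% of all windows. The core of the xenobiotic response element (TNGCGTG) was also in 5 of these 18 windows (27.8%). It was in 4 of 22 sterol windows (18.2%) and in 5.12% of all windows. A form of the sterol response element (TCACNCCAC) was in 0 of the 22 sterol windows and in 1.13% of all windows. An antioxidant response element (TGACNNNGC) was in 4 of 17 windows of NRF2 targets (23.5%), in 6 of 18 of the integrated stress response (33.3%), in 5 of 22 sterol windows (22.7%) and in 12.2% of all windows. These matches describe letters in a window and were not tested against the counts. The windows below are examples from genes with the sterol and stress differences described further on, and each holds the motif marked. Not all windows of the sterol and integrated stress response lists hold it, as the counts above show. The windows shown are written from 5′ to 3′ along the gene, with motif matches on either strand in capitals. Idi1 (chr17:66547475-66547774, minus strand) and Lss (chr20:12118181-12118480, minus strand) were lower with phenobarbital, and capitals mark the CCAAT box.
Idi1: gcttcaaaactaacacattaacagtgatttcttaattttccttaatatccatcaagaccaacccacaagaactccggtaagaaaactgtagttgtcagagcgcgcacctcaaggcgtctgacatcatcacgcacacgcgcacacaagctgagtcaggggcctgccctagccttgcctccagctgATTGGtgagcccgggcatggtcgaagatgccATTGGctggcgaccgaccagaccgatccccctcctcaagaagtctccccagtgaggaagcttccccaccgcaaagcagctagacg
Lss: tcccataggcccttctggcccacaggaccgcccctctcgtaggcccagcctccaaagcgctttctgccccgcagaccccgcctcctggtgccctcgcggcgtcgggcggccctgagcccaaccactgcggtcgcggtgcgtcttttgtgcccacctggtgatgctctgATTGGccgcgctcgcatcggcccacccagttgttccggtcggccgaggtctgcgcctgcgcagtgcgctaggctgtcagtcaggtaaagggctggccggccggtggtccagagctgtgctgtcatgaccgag
Xbp1 (chr14:84604373-84604672, plus strand) and Herpud1 (chr19:10614658-10614957, minus strand) were higher with phenobarbital, and capitals again mark the CCAAT box.
Xbp1: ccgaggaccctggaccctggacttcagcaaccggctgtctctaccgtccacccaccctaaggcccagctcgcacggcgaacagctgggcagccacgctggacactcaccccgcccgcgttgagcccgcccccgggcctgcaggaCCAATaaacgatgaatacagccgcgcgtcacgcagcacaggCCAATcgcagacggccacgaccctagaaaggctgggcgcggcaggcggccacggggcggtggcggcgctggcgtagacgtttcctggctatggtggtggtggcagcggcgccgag
Herpud1: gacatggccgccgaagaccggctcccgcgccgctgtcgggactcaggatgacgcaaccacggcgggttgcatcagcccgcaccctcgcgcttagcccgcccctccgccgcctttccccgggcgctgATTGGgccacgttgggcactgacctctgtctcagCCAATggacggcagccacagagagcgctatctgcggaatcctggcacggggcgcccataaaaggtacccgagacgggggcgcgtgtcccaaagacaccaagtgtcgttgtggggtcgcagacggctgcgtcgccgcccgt
Chac1 (chr3:126795881-126796180, plus strand) and Trib3 (chr3:161275484-161275783, minus strand) were higher with phenobarbital, and capitals mark the amino acid response element.
Chac1: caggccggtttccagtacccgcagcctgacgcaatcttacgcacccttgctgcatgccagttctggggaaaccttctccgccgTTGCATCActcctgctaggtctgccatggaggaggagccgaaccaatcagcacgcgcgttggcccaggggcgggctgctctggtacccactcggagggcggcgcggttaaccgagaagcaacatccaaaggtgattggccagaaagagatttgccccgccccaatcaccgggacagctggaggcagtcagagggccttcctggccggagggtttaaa
Trib3: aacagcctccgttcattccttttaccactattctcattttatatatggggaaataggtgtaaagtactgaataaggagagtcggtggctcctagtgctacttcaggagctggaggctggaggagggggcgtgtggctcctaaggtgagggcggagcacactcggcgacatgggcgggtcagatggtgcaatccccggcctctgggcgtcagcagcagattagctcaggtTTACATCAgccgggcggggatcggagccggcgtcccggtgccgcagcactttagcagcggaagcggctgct

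Over the 3 days together, called members of the lists of sterol synthesis, actin, lysosome, and mesenchymal and progenitor markers were all lower with phenobarbital than with ketoconazole. Called members of the lists of PPAR-alpha targets, CAR and PXR targets, the integrated stress response, chaperones of the endoplasmic reticulum and NRF2 targets were all higher. Of 13041 probes tested, 1459 (11.2%) passed an adjusted p of 0.05 in edgeR's quasi-likelihood test with Benjamini-Hochberg adjustment and blocks for day by culture and for plate. With phenobarbital 583 of them were higher (4.47%) and 876 lower (6.72%). Fold changes below are phenobarbital over ketoconazole in this test unless vehicle is named, each with its standard error (SE). They are relative to all probes, whose median log2 fold change was 0.05. The count was 1649 without both day 7 co-culture libraries of plate 1, and 920, 943 and 516 without plate 3, 5 or 7. Without the 4 libraries of low correlation it was 2491, with 1318 higher and 1173 lower, so the balance of directions turned. Some genes named below were chosen because they passed a test with an extreme fold change of the same sign in all or nearly all matched pairs. For these genes the pair counts and p-values follow in part from that choice and are not separate evidence of consistency.

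By day, 237 of 10911 probes passed on day 1 (2.17%; 0.926% higher and 1.25% lower). On day 3, 317 of 10896 passed (2.91%; 0.964% higher and 1.95% lower), and on day 7, 42 of 12507 (0.336%; 0.176% higher and 0.160% lower). These daily counts moved with single plates. The day 1 count was 104, 13, 648 and 110 without plate 1, 3, 5 or 7, the day 3 count 25 and 14 without plate 1 or 7, and the day 7 count 215, 1, 1 and 0 without plate 1, 3, 5 or 7. Without both day 7 co-culture libraries of plate 1, the day 7 count was 208. With a block for each matched pair, that is for each plate, day and culture, the counts were 163 on day 3 and 0 on day 7. In a fit with the vehicle libraries, 5207 of 13417 probes differed from vehicle with phenobarbital (38.8%; 20.3% higher and 18.5% lower) and 2703 with ketoconazole (20.1%; 9.87% higher and 10.3% lower). These comparisons share the vehicle libraries. Without plate 7 the phenobarbital count against vehicle was 2682, and without plate 3, 5 or 7 the ketoconazole count was 1593, 1706 and 1775.

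The mevalonate arm, which makes farnesyl units from acetyl-CoA, was lower with phenobarbital in 7 of its 9 tested probes, with none higher, against 6.72% of all probes. Its median log2 fold change was -1.60. The sterol ring enzymes, which turn squalene into cholesterol, were lower in 8 of 10 tested probes with none higher, and their median was -1.23. Without both day 7 co-culture libraries of plate 1 the counts were 7 of 9 and 8 of 9, and without plate 3, 5 or 7 the ring enzymes numbered 5, 5 and 4. The lists hold 10 and 12 genes, of which 9 and 10 have a probe.

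Cyp51, the demethylase that azoles bind, had 24.0 CPM as its lowest, 59.0 as its median and 87.0 as its highest level with phenobarbital on day 1. With ketoconazole the values were 65.9, 198 and 299 CPM, and with vehicle 25.6, 59.8 and 72.3 CPM. On day 3 it had 20.6, 34.8 and 64.6 CPM with phenobarbital, against 82.7, 160 and 210 CPM with ketoconazole. The ketoconazole libraries were the high ones on both days, and the groups did not overlap on day 3. On day 7 the values were 19.2, 38.0 and 71.6 CPM with phenobarbital and 37.3, 125 and 289 CPM with ketoconazole, where the lowest ketoconazole value came from the co-culture well of plate 1. Over all days Cyp51 fell by 1.74 ± 0.21 on the log2 scale with phenobarbital relative to ketoconazole (adjusted p = 2.4e-07), and was lower in 20 of 21 matched pairs. Relative to vehicle its change was 0.30 ± 0.18 with phenobarbital (adjusted p = 0.187) and 2.06 ± 0.18 with ketoconazole (adjusted p = 4.68e-13).

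Lss, lanosterol synthase, had 0.820 to 3.83 CPM with phenobarbital on day 3 (median 2.94), against 7.80 to 16.4 CPM with ketoconazole (median 13.5). All day 3 ketoconazole libraries lay above all phenobarbital ones. It was lower with phenobarbital in 21 of 21 pairs, with a log2 fold change of -2.29 ± 0.28 (adjusted p = 2.77e-07). Idi1, the isopentenyl diphosphate isomerase, had 0.510 to 7.13 CPM with phenobarbital on day 3 (median 3.14) and 7.99 to 31.5 CPM with ketoconazole (median 26.2), again without overlap. Its log2 fold change was -1.99 ± 0.34 (adjusted p = 6.21e-05, lower in 20 of 21 pairs). Acat2, which joins acetyl-CoA units at the start of the arm, had medians of 8.44, 4.10 and 8.85 CPM with phenobarbital on days 1, 3 and 7 and of 40.3, 34.5 and 37.9 CPM with ketoconazole. The groups overlapped on each day, since single ketoconazole libraries fell to 1.16 CPM on day 1 and 9.09 CPM on day 3. The fitted log2 fold change was -2.14 ± 0.32 (adjusted p = 6.89e-06).

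The same direction was seen for Mvd, mevalonate diphosphate decarboxylase (-1.65 ± 0.26), Fdft1, squalene synthase (-1.08 ± 0.17), Msmo1, the methylsterol oxidase after Cyp51 (-1.80 ± 0.32), Dhcr7, which completes cholesterol (-1.25 ± 0.27), and Sqle, squalene epoxidase (-1.62 ± 0.43), each with an adjusted p under 0.05. Against vehicle, 8 of the 9 mevalonate probes and 7 of the 10 ring enzymes were higher with ketoconazole (medians 1.72 and 1.87), where 9.87% of all probes were. With phenobarbital 3 of 9 and 1 of 10 were higher and 1 ring enzyme was lower (medians 0.44 and 0.26). Of all probes 20.3% were higher and 18.5% lower with phenobarbital.

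Not all genes of sterol control followed the enzymes. Insig1, the membrane protein that holds Scap back when sterols are plentiful, differed from vehicle with both, by 2.79 ± 0.34 with phenobarbital (adjusted p = 1.97e-09) and 3.02 ± 0.34 with ketoconazole (adjusted p = 7.11e-10). On day 3 it had 108, 549 and 868 CPM with phenobarbital, 160, 450 and 534 CPM with ketoconazole and 12.2, 24.4 and 33.2 CPM with vehicle. Both compounds lay above every vehicle library and overlapped each other. Between the compounds Insig1 passed on day 1 alone, at -1.32 ± 0.28 (adjusted p = 0.0217), and its all-day value was -0.34 ± 0.32 (adjusted p = 0.528).

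Srebf2, which encodes Srebp-2, had 101, 148 and 192 CPM with phenobarbital on day 3, against 273, 438 and 657 CPM with ketoconazole and 323, 395 and 476 CPM with vehicle. The phenobarbital libraries were the low ones and did not overlap with either group. Over all days Srebf2 fell by 1.39 ± 0.16 on the log2 scale (adjusted p = 1.36e-07, lower in 20 of 21 pairs). Of the 7 tested probes for sterol sensing and uptake 2 were lower, against 6.72% of all probes, and none was higher. Cyp7a1, the first enzyme of bile acid synthesis, did not pass the filter on low counts.

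**Figure D1:**
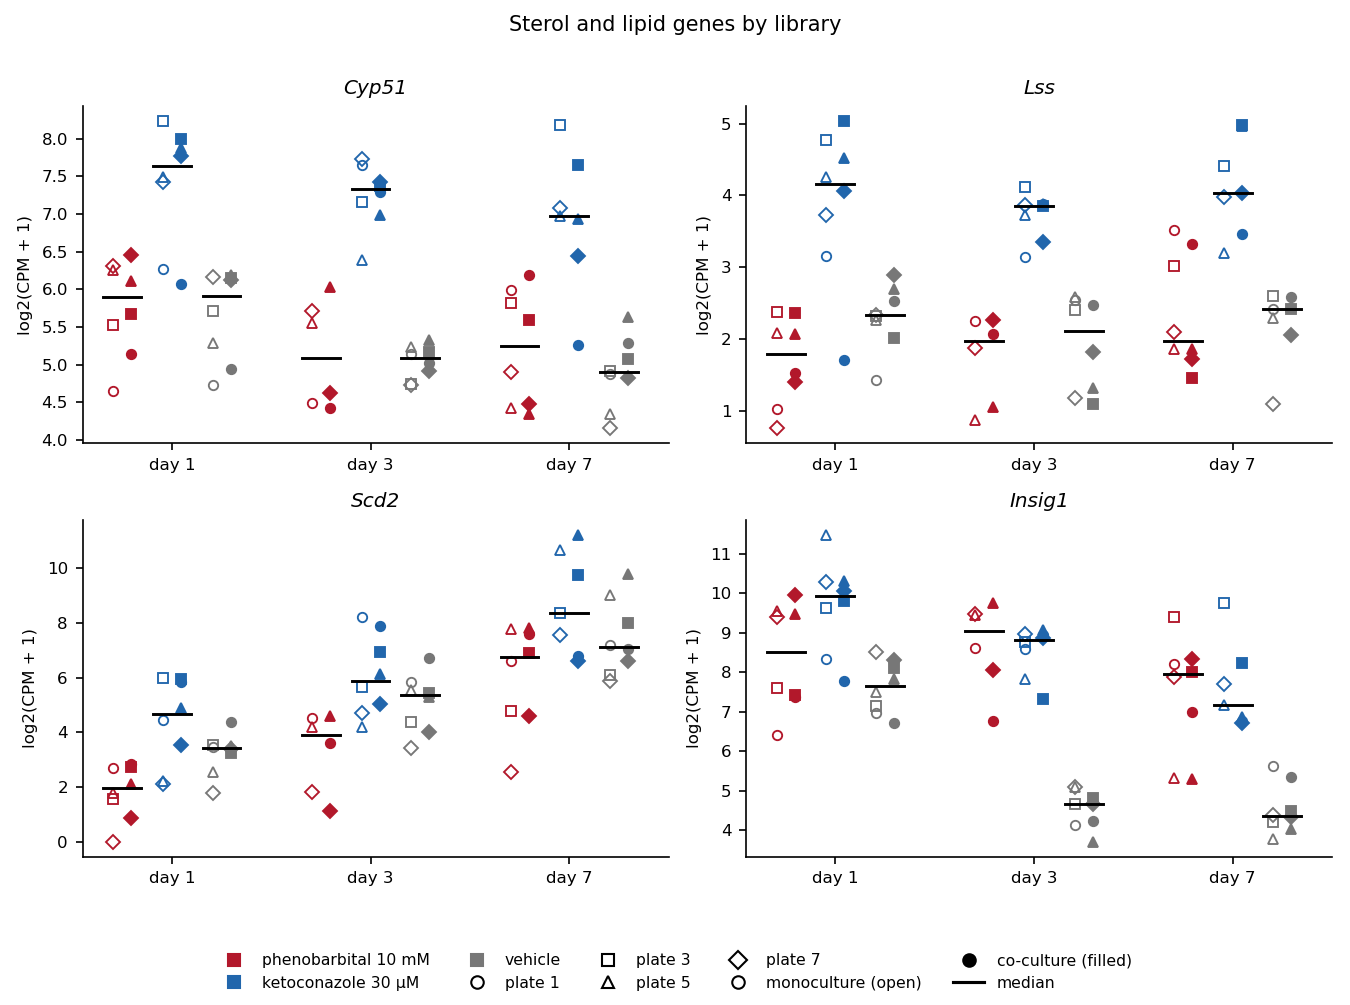
Levels of Cyp51, Lss, Scd2 and Insig1 as log2(CPM + 1) in each library by day, with phenobarbital, ketoconazole and vehicle from left to right; symbols give the plate, open symbols monoculture, filled symbols co-culture, and bars the median. On day 3 all ketoconazole libraries lie above all phenobarbital libraries for Cyp51 (lowest 82.7 CPM) and Lss (lowest 7.80 CPM), whereas both compounds share the same high range for Insig1.

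Scd2, a stearoyl-CoA desaturase, was among the probes with the lowest fold changes. It had 0, 2.87 and 6.14 CPM with phenobarbital on day 1 and 3.29, 24.7 and 62.9 CPM with ketoconazole, and on day 7 it had 4.78, 107 and 223 CPM with phenobarbital and 96.8, 326 and 2363 CPM with ketoconazole. The ranges touched on each day although the ketoconazole median was higher each time. Over the 3 days the log2 fold change was -3.24 ± 0.34 (adjusted p = 3.38e-08, lower in 19 of 21 pairs). Against vehicle Scd2 went opposite ways, -1.74 ± 0.30 with phenobarbital and 1.46 ± 0.29 with ketoconazole, and both passed. Fads1, the delta-5 desaturase of polyunsaturated fatty acids, had 0.935 to 4.72 CPM with phenobarbital on day 3 (median 2.92) and 13.7 to 43.2 CPM with ketoconazole (median 25.9), without overlap, and a log2 fold change of -2.14 ± 0.35 (adjusted p = 4e-05). Acss2, which makes acetyl-CoA from acetate, was lower (-2.03 ± 0.32), while Gpam, which starts triglyceride synthesis, was higher (0.78 ± 0.21; adjusted p = 0.0886 with the block by matched pairs). Over the fatty acid synthesis list of 15 genes, 3 of 12 tested probes were lower and 1 higher, with a median of -0.51. Of all probes 6.72% were lower and 4.47% higher.

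PPAR-alpha is the nuclear receptor that switches on fatty acid oxidation. Of 31 tested probes of its targets, 14 were higher and none lower, against 4.47% of all probes, with a median log2 fold change of 0.81. By day 8 were called on day 1, 1 on day 3 and 0 on day 7, and none was lower. Of all probes 0.926%, 0.964% and 0.176% were higher on these days. Without plate 1 the all-day count was 8 and without plate 3 it was 4. On day 1 the median difference over the list was 1.62 to 2.39 log2 units in the 4 pairs of plates 1 and 3, against -0.04 to 1.07 in the 4 pairs of plates 5 and 7. Against vehicle 10 of 32 probes were higher and 6 lower with phenobarbital, where 20.3% and 18.5% of all probes were. With ketoconazole 2 were higher and 12 lower, where 9.87% and 10.3% of all probes were.

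Pdk4, the kinase that shuts pyruvate dehydrogenase in fasting, had 2.07, 17.1 and 65.2 CPM with phenobarbital on day 1, 0, 0.698 and 3.36 CPM with ketoconazole and 0, 0.354 and 1.12 CPM with vehicle. Most phenobarbital libraries were high, and the ranges of the compounds touched at their edges. Its log2 fold change was 3.83 ± 0.59 (adjusted p = 1.41e-05, higher in 20 of 21 pairs). Fgf21, the fasting hormone that both PPAR-alpha and Atf4 induce, had 11.2, 77.3 and 152 CPM with phenobarbital on day 3 and 2.86, 7.24 and 19.8 CPM with ketoconazole, with some overlap, and a log2 fold change of 2.28 ± 0.37 (adjusted p = 3.39e-05). Acot1, an acyl-CoA thioesterase, was near 0 in every ketoconazole library, at most 1.29 CPM. With phenobarbital it had 4.68 to 46.4 CPM on plates 1 and 3 on day 1, and 0 to 4.08 CPM on plates 5 and 7. On day 3 it had 11.3 to 33.7 CPM on plate 1 and 0 to 0.510 CPM on plates 5 and 7. On day 7 it had 0.678 to 67.4 CPM on plates 1 and 3 and 0.423 to 1.80 CPM on plates 5 and 7. The medians over all plates were 4.38, 0.255 and 1.24 CPM. Over the 3 days the log2 fold change was 4.21 ± 0.80 (adjusted p = 0.000313, higher in 13 of 21 pairs and equal in 2).

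Cyp4a2, a fatty acid hydroxylase, had 56.4, 247 and 2176 CPM with phenobarbital on day 1 and 2.63, 31.7 and 116 CPM with ketoconazole at its most abundant probe, and its ranges overlapped. On plates 1 and 3 the ranges were 305 to 2176 CPM with phenobarbital and 2.63 to 116 CPM with ketoconazole. On plates 5 and 7 they were 56.4 to 189 CPM and 21.4 to 67.4 CPM. All 3 Cyp4a2 probes were higher over all days, by 2.21 ± 0.44, 2.72 ± 0.75 and 1.77 ± 0.53. Cyp4a genes are near-identical copies, and so are the Cyp2b, Cyp3a and Gsta genes below, so a probe may count more than 1 of them.

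Targets of CAR and PXR were higher with phenobarbital in 6 of 20 tested probes, against 4.47% of all probes, and lower in none, with a median of 0.96. Against vehicle 5 of 20 were higher and none lower with phenobarbital, where 20.3% of all probes were higher. With ketoconazole 2 of 20 were higher and 3 lower, where 9.87% and 10.3% of all probes were. There were 3 calls on day 1, 2 on day 3 and 0 on day 7, where 0.926%, 0.964% and 0.176% of all probes were higher. Over all days there were 8 calls without both day 7 co-culture libraries of plate 1, 4 without plate 1, 3 without plate 3 and 4 without plate 7. On day 1 the median difference over the list was 2.09 to 2.43 log2 units in the pairs of plates 1 and 3, and -0.07 to 0.49 in those of plates 5 and 7. Cyp2b2, the classical phenobarbital-inducible cytochrome P450, had 8.96 to 103 CPM with phenobarbital on plates 1 and 3 on day 1 and 0 to 1.04 CPM on plates 5 and 7. Ketoconazole libraries had 0 to 1.98 CPM and vehicle libraries 0 to 2.57 CPM. The day 1 log2 fold change was 5.67 ± 0.87 (adjusted p = 0.00341). The all-day value of 2.93 ± 1.06 did not pass (adjusted p = 0.0665). The highest ketoconazole level, 87.3 CPM, came from the day 7 co-culture well of plate 1. Without both libraries of that pair the all-day log2 fold change was 4.62 (adjusted p = 0.000126), and with the block by matched pairs Cyp2b2 had 3.96 (adjusted p = 0.0237). Cyp3a23/3a1, another P450 of this response, had 2.52, 19.6 and 54.4 CPM with phenobarbital on day 1 and 0, 2.00 and 8.22 CPM with ketoconazole. On plates 1 and 3 the ranges were 29.6 to 54.4 CPM with phenobarbital and 0 to 1.69 CPM with ketoconazole. On plates 5 and 7 they were alike, 2.52 to 9.54 CPM and 2.31 to 8.22 CPM. Its all-day log2 fold change was 2.11 ± 0.68 (adjusted p = 0.0371), and adjusted p was 0.114, 0.349 and 0.119 without plate 1, 3 or 7. With the block by matched pairs it was 1.76 (adjusted p = 0.142).

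Gsta2, a glutathione transferase, had 126, 330 and 680 CPM with phenobarbital on day 1 and 37.9, 46.3 and 115 CPM with ketoconazole. On day 3 it had 130, 179 and 276 CPM with phenobarbital, 7.79, 19.3 and 27.2 CPM with ketoconazole and 0.567, 7.53 and 17.6 CPM with vehicle. The compounds did not overlap on either day. On day 7 both libraries of the co-culture pair of plate 1 were low, at 21.2 CPM with phenobarbital and 15.2 CPM with ketoconazole, while the others had 264 to 454 CPM and 75.6 to 183 CPM. Gsta2 was higher in 21 of 21 pairs, with a log2 fold change of 2.38 ± 0.28 (adjusted p = 1.41e-07), and differed from vehicle by 3.75 ± 0.34 with phenobarbital and 1.46 ± 0.33 with ketoconazole. Ephx1, the microsomal epoxide hydrolase, had medians of 1879, 806 and 410 CPM with phenobarbital on days 1, 3 and 7, 556, 232 and 327 CPM with ketoconazole and 1549, 583 and 393 CPM with vehicle. The all-day log2 fold change came to 1.30 ± 0.23 (adjusted p = 0.00014). Against vehicle it was 0.26 ± 0.23 with phenobarbital (adjusted p = 0.388) and -1.06 ± 0.23 with ketoconazole (adjusted p = 0.000525). Ephx1 is also in the NRF2 list below.

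The exporter gene Abcc2 (1.37 ± 0.34) and the retinal dehydrogenase gene Aldh1a1 (1.85 ± 0.51) were also higher. With the block by matched pairs Aldh1a1 had an adjusted p of 0.0806. Por, the electron donor of P450 enzymes, had a log2 fold change of 0.13 ± 0.16 (adjusted p = 0.625) and Ugt2b1, a glucuronosyltransferase, 1.22 ± 0.65 (adjusted p = 0.232). Nr1i2, which encodes PXR, was higher (0.85 ± 0.16, adjusted p = 0.00027), while Nr1i3, which encodes CAR, averaged 3.20 CPM with phenobarbital and 0.338 CPM with ketoconazole and did not pass (2.22 ± 0.94, adjusted p = 0.122). For the aryl hydrocarbon receptor, Cyp1a1 and Cyp1a2 had log2 fold changes of 0.13 ± 0.58 and 0.16 ± 0.30 that did not pass, and Cyp1b1 was lower (-1.81 ± 0.42, adjusted p = 0.00322), the only 1 of its 6 tested list members to be called.

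In the integrated stress response list of 19 genes, 6 of 21 tested probes were higher with phenobarbital over all days and none lower, with a median of 0.57. Of all probes 4.47% were higher. There were 0 calls on day 1, 6 higher on day 3, where 0.964% of all probes were, and 0 on day 7. The all-day count was 10 without plate 1, 2 without plate 5 and 2 without plate 7. On day 1 the median difference over the list was -0.95 to -0.26 in the pairs of plates 1 and 3, and 0.51 to 1.10 in those of plates 5 and 7. Against vehicle 15 of its probes were higher with phenobarbital and 12 with ketoconazole, where 20.3% and 9.87% of all probes were, and none was lower with either.

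Ddit3, the stress factor also called CHOP, had 44.1 to 196 CPM with phenobarbital on plates 1 and 3 on day 1 and 1402 to 10200 CPM on plates 5 and 7. With ketoconazole it had 303 to 2311 CPM over all plates, and with vehicle 41.5 to 122 CPM. On day 1 phenobarbital libraries therefore lay both below and above the ketoconazole libraries, and 4 of 8 pairs went each way (log2 fold change -1.01 ± 0.93, adjusted p = 0.677). On day 3 Ddit3 had 389, 1767 and 2942 CPM with phenobarbital, 41.1, 258 and 674 CPM with ketoconazole and 75.2, 126 and 213 CPM with vehicle, and the log2 fold change was 2.60 ± 0.62 (adjusted p = 0.0447). The all-day value was 1.91 ± 0.53 (adjusted p = 0.0143). It did not pass without plate 3 (adjusted p = 0.0554), plate 5 (0.0940) or plate 7 (0.309), or without the 4 libraries of low correlation (0.0747). With the block by matched pairs Ddit3 had 1.34 (adjusted p = 0.162). Against vehicle Ddit3 was higher with both, by 4.31 ± 0.48 with phenobarbital and 2.57 ± 0.46 with ketoconazole.

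Trib3, a pseudokinase induced by Atf4 and Ddit3, had 262, 586 and 759 CPM with phenobarbital on day 3, 86.4, 160 and 253 CPM with ketoconazole and 93.9, 107 and 128 CPM with vehicle. The compounds did not overlap. Its all-day log2 fold change was 1.25 ± 0.28 (adjusted p = 0.00261), and adjusted p was 0.0851 and 0.100 without plate 5 or 7. Chac1, which breaks down glutathione, had 15.8, 85.1 and 144 CPM with phenobarbital on day 3 and 4.04, 16.4 and 47.1 CPM with ketoconazole. Its all-day log2 fold change was 1.65 ± 0.37 (adjusted p = 0.00205), with an adjusted p of 0.0852 without plate 5. Slc7a11, the cystine importer, was higher by 1.34 ± 0.31 (adjusted p = 0.0026). Atf4 itself (log2 fold change 0.45 ± 0.17, adjusted p = 0.0783) and the stress hormone Gdf15 (0.57 ± 0.39, adjusted p = 0.373) did not pass over all days.

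Of 15 tested probes for chaperones of the endoplasmic reticulum, 7 were higher with phenobarbital and none lower, with a median of 0.56. Of all probes 4.47% were higher. The number higher ran from 2 to 11 over 17 alternative settings, which include each culture alone. Against vehicle 10 were higher and none lower with phenobarbital, where 20.3% of all probes were higher. With ketoconazole 3 were higher and 1 lower, where 9.87% and 10.3% of all probes were. Xbp1, the transcription factor whose messenger is spliced under folding stress, had 65.6, 73.4 and 120 CPM with phenobarbital on day 1, 14.8, 31.0 and 40.8 CPM with ketoconazole and 27.4, 45.3 and 67.5 CPM with vehicle. On day 3 it had 39.3, 65.9 and 85.9 CPM with phenobarbital and 12.7, 19.0 and 38.8 CPM with ketoconazole. The compounds did not overlap on either day, and the vehicle medians lay between theirs. Xbp1 was higher in 21 of 21 pairs, by 1.41 ± 0.14 (adjusted p = 3.38e-08), and went opposite ways against vehicle, 0.76 ± 0.15 with phenobarbital and -0.65 ± 0.15 with ketoconazole. Herpud1, a membrane protein of endoplasmic-reticulum-associated degradation, had 1170, 1771 and 3478 CPM with phenobarbital on day 3 and 447, 777 and 1039 CPM with ketoconazole, without overlap. It too was higher in 21 of 21 pairs (1.43 ± 0.22, adjusted p = 1.35e-05). Ficd, which modifies the chaperone BiP (1.73 ± 0.20), and the co-chaperone Dnajc3 (0.92 ± 0.15 and 0.83 ± 0.14 at its 2 probes) were higher as well.

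Of 19 tested NRF2 targets, the antioxidant genes, 7 were higher and none lower, with a median of 0.54, where 4.47% of all probes were higher. The number higher ran from 2 to 8 over 17 alternative settings, which include each culture alone. Against vehicle 12 were higher and none lower with phenobarbital, where 20.3% of all probes were higher. With ketoconazole 8 were higher and 2 lower, where 9.87% and 10.3% of all probes were. Osgin1, an oxidative stress-induced growth inhibitor, had 342, 452 and 722 CPM with phenobarbital on day 1, 67.1, 135 and 242 CPM with ketoconazole and 261, 308 and 412 CPM with vehicle. On day 3 it had 429, 777 and 1641 CPM with phenobarbital and 161, 170 and 233 CPM with ketoconazole. The compounds were apart on both days. It was higher in 21 of 21 pairs (1.79 ± 0.19, adjusted p = 3.4e-08). Gclc, the limiting enzyme of glutathione synthesis (1.01 ± 0.14), and Srxn1, sulfiredoxin (1.48 ± 0.31), were higher, while Hmox1, haem oxygenase, had 0.54 ± 0.30 (adjusted p = 0.259). Tmem117, a membrane protein that has been linked to endoplasmic reticulum stress, had 11.8, 18.3 and 82.6 CPM with phenobarbital on day 3 and 0.789, 1.81 and 4.25 CPM with ketoconazole. It was higher in 21 of 21 pairs, by 3.65 ± 0.45 (adjusted p = 2.55e-07). Tmem117 is among the genes chosen for a high fold change of the same sign over the pairs, so these values partly reflect that choice.

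**Figure D2:**
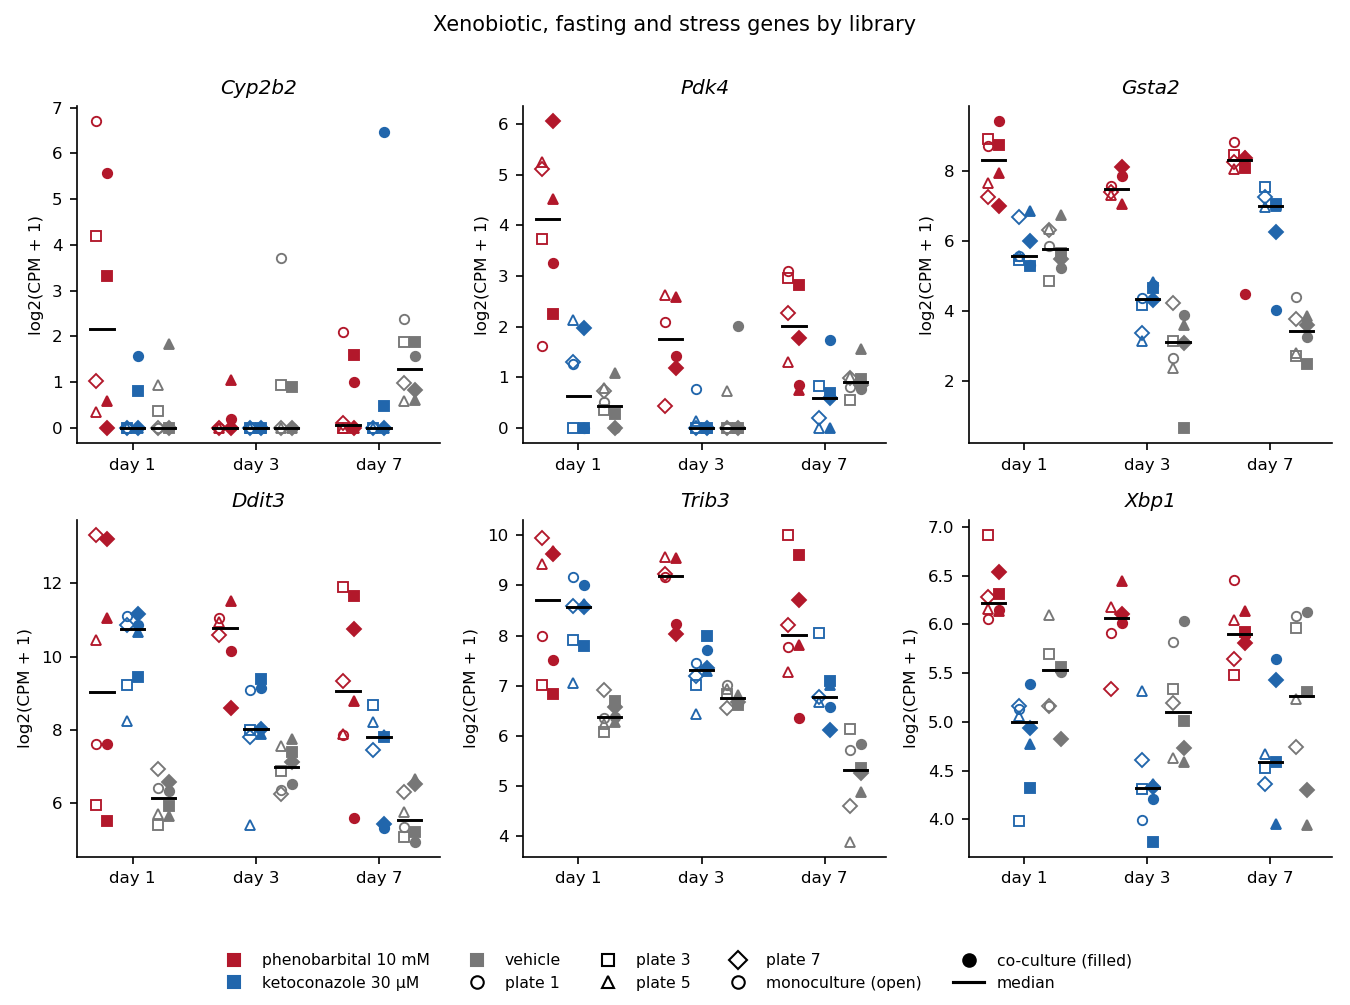
Levels of Cyp2b2, Pdk4, Gsta2, Ddit3, Trib3 and Xbp1 as log2(CPM + 1) in each library by day, with phenobarbital, ketoconazole and vehicle from left to right; symbols give the plate, open symbols monoculture, filled symbols co-culture, and bars the median. On day 1 the phenobarbital libraries of plates 1 and 3 have 8.96 to 103 CPM of Cyp2b2 and 44.1 to 196 CPM of Ddit3, and those of plates 5 and 7 have 0 to 1.04 CPM and 1402 to 10200 CPM.

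Secreted proteins of hepatocytes were not called. Of 28 tested probes for secreted proteins none passed between the compounds, with a median of 0.09. Against vehicle 13 were lower with each compound, where 18.5% of all probes were with phenobarbital and 10.3% with ketoconazole. Alb had a log2 fold change of 0.29 ± 0.25 (adjusted p = 0.503). Among genes of hepatocyte metabolism 4 of 21 were higher, against 4.47% of all probes, and none lower. By day 4 were higher on day 1, 0 on day 3 and 0 on day 7, where 0.926%, 0.964% and 0.176% of all probes were. The urea cycle gene Arg1 (1.48 ± 0.47) and the tyrosine-breakdown gene Hgd (2.35 ± 0.53) were higher over all days. Their differences on day 3 ran from -1.45 to 0.99 and from -2.16 to 3.52 log2 units over the pairs. In the bile acid list the bile salt exporter Abcb11 (1.10 ± 0.31) was higher.

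Lysosomal and autophagy genes were lower with phenobarbital in 10 of 24 tested probes, against 6.72% of all probes, and higher in none, with a median of -0.57. Without plate 1 or 7 the count was 5 and 1. Against vehicle 4 were higher and 6 lower with phenobarbital, near the 20.3% and 18.5% of all probes. With ketoconazole 12 were higher and 3 lower, where 9.87% and 10.3% of all probes were. Npc2, the lysosomal carrier that hands cholesterol to Npc1, had 60.1, 128 and 183 CPM with phenobarbital on day 1, 75.0, 286 and 334 CPM with ketoconazole and 122, 160 and 196 CPM with vehicle. Only the lowest ketoconazole library fell within the phenobarbital range. The all-day log2 fold change came to -1.02 ± 0.24 (adjusted p = 0.004), with an adjusted p of 0.0502 without plate 7. Gla, alpha-galactosidase (-0.70 ± 0.12), Gpnmb, a glycoprotein raised by lysosomal load (-1.41 ± 0.38), and Wipi1, which acts in autophagosome formation (-0.58 ± 0.13), were lower.

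In the list of actin and its partners, 8 of 20 tested probes were lower with phenobarbital and none higher, with a median of -0.70. Of all probes 6.72% were lower, and without plate 3 the actin count was 5. Against vehicle 18 were lower with phenobarbital and 6 with ketoconazole, where 18.5% and 10.3% of all probes were. Of 10 tubulin and keratin probes 2 were lower over all days and 0 on each day. Flna, filamin A, which cross-links actin, had 64.9, 94.7 and 140 CPM with phenobarbital on day 3, 236, 287 and 379 CPM with ketoconazole and 105, 266 and 320 CPM with vehicle. On day 7 it had 81.5, 113 and 204 CPM with phenobarbital and 227, 289 and 352 CPM with ketoconazole. Phenobarbital and ketoconazole did not overlap on these days. Flna was lower in 21 of 21 pairs, at -1.25 ± 0.17 (adjusted p = 1.57e-06), and relative to vehicle it changed by -1.18 ± 0.15 with phenobarbital and 0.07 ± 0.14 with ketoconazole (adjusted p = 0.791). Cnn2, calponin 2, had medians of 106, 183 and 69.9 CPM with phenobarbital on days 1, 3 and 7, 317, 614 and 266 CPM with ketoconazole and 565, 712 and 244 CPM with vehicle. In the all-day fit the log2 fold change was -1.71 ± 0.23 (adjusted p = 1.17e-06). Tpm1, tropomyosin (-1.52 ± 0.29), Actn1, alpha-actinin (-0.99 ± 0.19), and Cyr61, a matricellular target of YAP (-1.55 ± 0.26), were lower.

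Some markers of other liver cells were lower as well, where 6.72% of all probes were lower. In bulk RNA, fewer cells of a type and less RNA per cell cannot be told apart. For stellate and mesenchymal cells 10 of 21 tested probes were lower and none higher, with a median of -0.97; the count was 6 without plate 5 and 4 without plate 7. The summed level of the list was 110 to 514 CPM with phenobarbital on day 3, 472 to 1400 CPM with ketoconazole and 759 to 1638 CPM with vehicle. On day 7 it was 394 to 8277, 1974 to 23600 and 2347 to 30500 CPM. The medians grew with time in all 3 groups, and Des, Lum, Dcn and Postn averaged under 1 CPM with both compounds. For macrophages 5 of 20 were lower (3 and 1 without plate 5 or 7), with summed levels on day 7 of 53 to 1491 CPM with phenobarbital, 349 to 1747 CPM with ketoconazole and 521 to 2419 CPM with vehicle. Adgre1, C1qa, Timd4 and Aif1 averaged under 1 CPM. For endothelial cells 4 of 14 were lower (1 without plate 7), with summed levels on day 7 of 14.6 to 140, 62.3 to 210 and 40.4 to 478 CPM, and the defining genes Kdr, Stab1, Stab2 and Vwf averaged under 1 CPM. The part of these cells in the other differences was not tested.

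Sox9, a transcription factor of bile duct and progenitor cells, had 0, 3.51 and 10.8 CPM with phenobarbital on day 1, 23.7, 47.9 and 111 CPM with ketoconazole and 12.6, 40.4 and 120 CPM with vehicle. On day 3 it had 2.10, 23.8 and 115 CPM with phenobarbital, 251, 489 and 913 CPM with ketoconazole and 222, 882 and 1598 CPM with vehicle. Phenobarbital libraries were the low ones, apart from both other groups on these days. Sox9 was lower in 21 of 21 pairs, at -3.17 ± 0.40 (adjusted p = 4.9e-07). Against vehicle it changed by -3.26 ± 0.35 with phenobarbital (adjusted p = 2.81e-11) and by -0.32 ± 0.30 with ketoconazole (adjusted p = 0.483). In the cholangiocyte and progenitor list 5 of 11 tested probes were lower, against 6.72% of all probes, and none higher, and without plate 7 the count was 3. The tight-junction gene Cldn4 was lower at -3.46 ± 0.71, and Krt7 and Cftr, which mark bile duct cells, averaged under 1 CPM with both compounds.

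Acta2, smooth muscle actin of activated stellate cells, had at most 0.0850 CPM in any phenobarbital library of day 3. It had 0.690, 3.65 and 14.2 CPM with ketoconazole and 3.63, 9.71 and 55.7 CPM with vehicle on that day. On day 7 it had 0.637, 17.5 and 74.9 CPM with phenobarbital, 22.2, 54.3 and 256 CPM with ketoconazole and 23.7, 99.2 and 371 CPM with vehicle. Phenobarbital was below both other groups without overlap on day 3 and overlapped with them on day 7. The all-day log2 fold change was -3.44 ± 0.53 (adjusted p = 1.41e-05). Tnc, the matrix glycoprotein tenascin C, had 0, 1.51 and 1.73 CPM with phenobarbital on day 3 and 14.0, 28.7 and 60.7 CPM with ketoconazole, without overlap. Its log2 fold change was -3.09 ± 0.42 (adjusted p = 1.57e-06). Tagln (-1.87 ± 0.26), an actin-binding protein of contractile cells, Loxl1 (-1.92 ± 0.39), a collagen cross-linking enzyme, Thbs1 (-1.82 ± 0.44), thrombospondin, and Tgfb1 (-1.68 ± 0.32), the fibrogenic cytokine, were lower too.

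**Figure D3:**
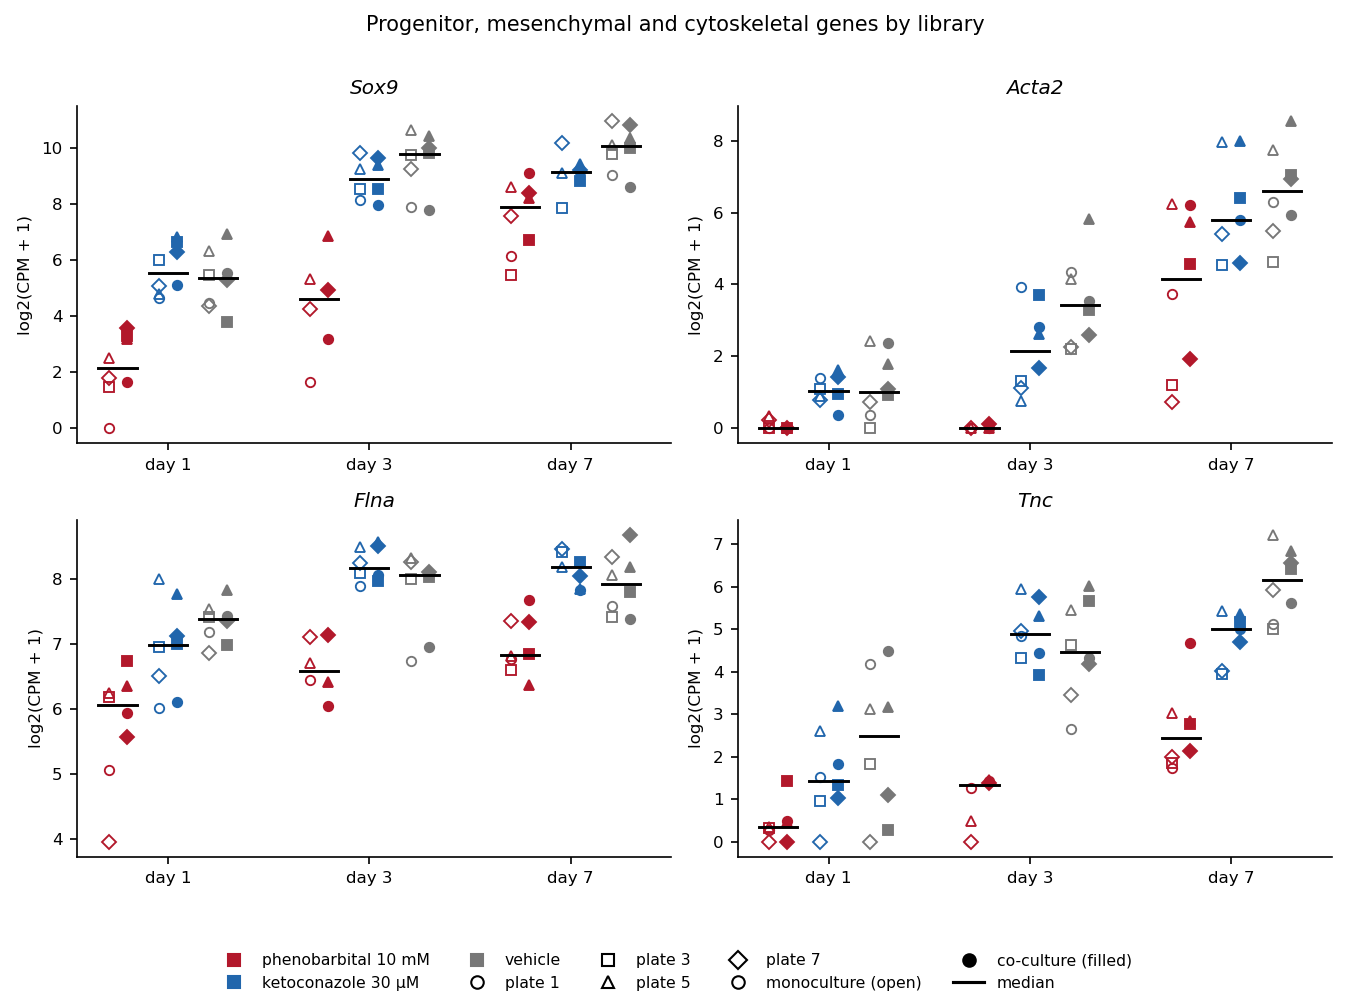
Levels of Sox9, Acta2, Flna and Tnc as log2(CPM + 1) in each library by day, with phenobarbital, ketoconazole and vehicle from left to right; symbols give the plate, open symbols monoculture, filled symbols co-culture, and bars the median. On day 3 every phenobarbital library lies below every ketoconazole library for all 4 genes, as with Sox9 at most 115 CPM against at least 251 CPM.

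Other probes with the highest all-day fold changes included Fabp7, a fatty acid binding protein (2.02 ± 0.28), Cdo1, cysteine dioxygenase (1.95 ± 0.31), Ppp1r3c, a glycogen-targeting subunit (1.94 ± 0.33), and a second glutathione transferase probe, Gsta50.81 as deposited (1.94 ± 0.27, higher in 21 of 21 pairs). Crct1 (-3.41 ± 0.42), Rab15 (-2.77 ± 0.32), a small GTPase of vesicle traffic, and Nes (-2.79 ± 0.44), the intermediate filament nestin, were among the lowest. Crct1 averaged 21.2 CPM with phenobarbital, 275 CPM with ketoconazole and 71.7 CPM with vehicle, so it went opposite ways against vehicle (-1.87 ± 0.36 and 1.67 ± 0.35). Among immune signals Cxcl10 was higher (2.56 ± 0.45) and Ccl2 lower (-2.49 ± 0.55), both chemokines. No probe of the ribosomal (47), proteasome (30) or cell cycle (21) lists passed. Against vehicle 15 cell cycle probes were lower with phenobarbital and 9 with ketoconazole, where 18.5% and 10.3% of all probes were.

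**Figure D4:**
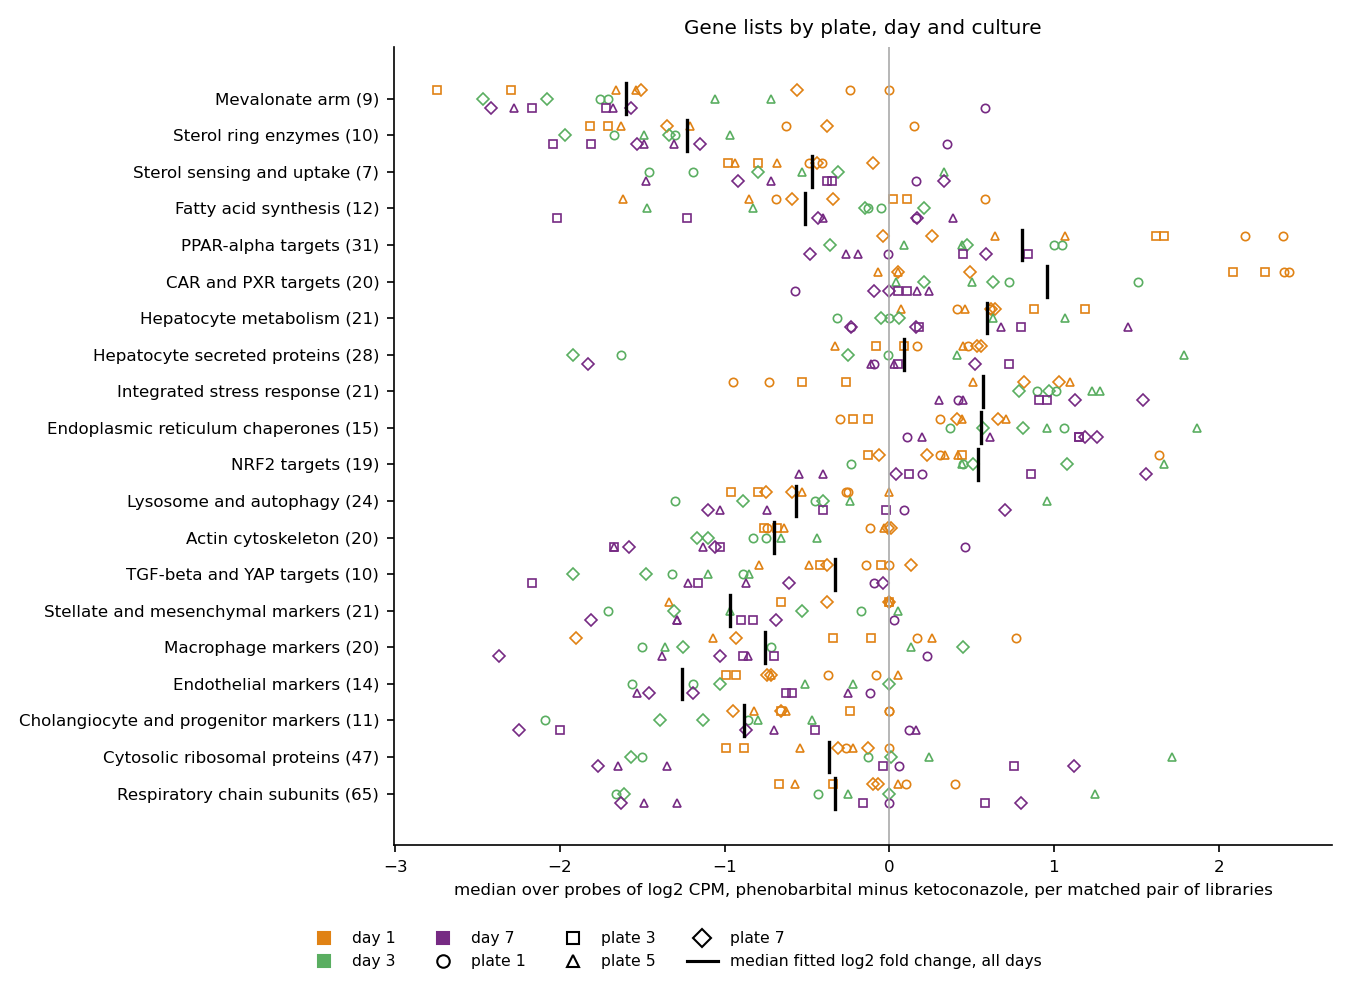
Median over the tested probes of each list (number in brackets) of log2 CPM with phenobarbital minus ketoconazole, per matched pair of libraries; colour gives the day, symbols the plate, and black bars the median fitted log2 fold change over all days. The CAR and PXR and PPAR-alpha lists have 1.62 to 2.43 on plates 1 and 3 and -0.07 to 1.07 on plates 5 and 7 on day 1, and the mevalonate bar lies at -1.60.

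**Figure D5:**
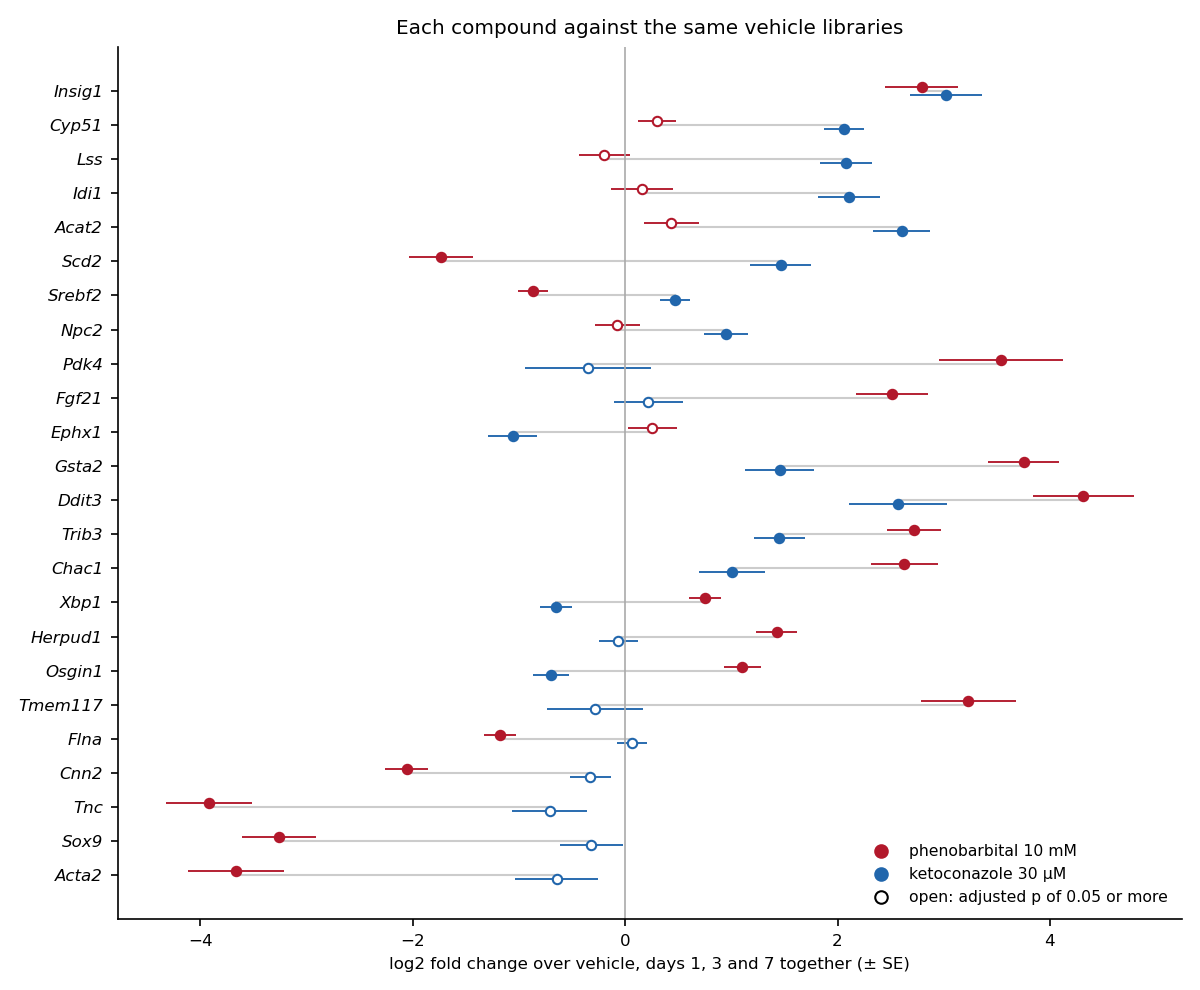
Fitted log2 fold change (± SE) over the same vehicle libraries with phenobarbital and with ketoconazole for 24 genes, days 1, 3 and 7 together; open points have an adjusted p of 0.05 or more. Insig1 is higher with both, Scd2, Srebf2, Xbp1 and Osgin1 go opposite ways, and Sox9 and Acta2 pass with phenobarbital and not with ketoconazole.

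The difference itself was tested between days and between cultures, as interaction terms in edgeR. The phenobarbital-ketoconazole difference on day 3 departed from that on day 1 at 10 of 13041 probes (0.0767%), 2 with a higher (0.0153%) and 8 with a lower value on day 3 (0.0613%). This count was 0 without plate 1, 3 or 7, 46 without plate 5, 20 with the block by matched pairs, 0 with no plate block and 132 in DESeq2. Among them were Adam19, a metalloprotease (-4.64), the receptor gene Adgrg6 (-4.25), Megf9 (1.91), and Mmp15, a membrane metalloprotease (1.80). On day 7 against day 1 a single probe passed (0.00767%), Trim15, a ubiquitin ligase, at 3.62, and with the block by matched pairs 0 passed. Trim15 had a log2 fold change of -4.23 ± 0.52 on day 1 (adjusted p = 0.000852) and -0.37 ± 0.45 on day 7 (adjusted p = 0.718). Between co-culture and monoculture 0 probes passed in edgeR, 71 had an unadjusted p under 0.05, and DESeq2 called 2. In co-culture alone, where the compound fields do not conflict, 190 probes passed over the 3 days, and in monoculture alone 153.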

How the data were processed

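TempO-Seq libraries were sequenced and turned into a table of probe counts by the assay's supplier, per the labels' protocols; the deposited counts are whole numbers without normalization. The submitters' processing notes name Bowtie; its version, the genome build and the strand setting were not given in the sources used here. The table has 22253 probes, of which 237 had no count. Probe names are used as deposited.

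The sample titles number the plates, so libraries of the same plate, day and culture form pairs; their mean residual correlation was 0.263 (-0.0939 to 0.649, over 0.1 in 16 of 21 pairs), against 0.0944 over all library pairs of the same plate number and -0.0299 for different plates, between libraries of different groups. Column names gave compound, dose, day, culture and plate. Counts were fitted with edgeR 4.0.16 in R 4.3.3 (TMM scaling, filterByExpr with a minimum count of 10, glmQLFit, glmQLFTest, two-sided), with day by culture and plate as blocks (an alternative had a block for each matched pair of plate, day and culture), and p-values were adjusted by Benjamini-Hochberg over all probes tested at a threshold of 0.05. Each day was fitted with culture and plate. A second fit held the vehicle libraries. The SE is the log2 fold change divided by the root of F. CPM values (counts scaled to a common size) are on TMM-scaled libraries, and pair differences used log2 CPM with a prior count of 2. More deeply sequenced probes have less counting error, and the number of libraries limits the precision.

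Named genes passed the threshold with a mean of at least 10 CPM in 1 compound and were the 10 highest and 10 lowest over all days with the same sign in at least 90% of pairs, the 5 highest and 5 lowest of each day with the same sign in every pair, the 4 smallest p-values of each difference, up to 4 members of each list, and a set of well-known genes. The members and lists were chosen with earlier results of these data known. Some named genes are not reported here. The fits were tested on simulated data. Alternatives were other size factors, DESeq2 1.42.0, other filters, other blocks, each culture alone and leaving out plates. A further 4 alternatives were chosen after seeing the data: the share of the 50 highest probes as a covariate, and leaving out the libraries of low correlation or those of day 7 co-culture on plate 1, together or the ketoconazole one alone.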

Additional observations from a re-analysis of the deposited data

Results flagged for a closer look

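Over 29 genes, 174 groups of libraries of 1 compound and day were examined, and in 22 of them 1 library lay far from the others of its group. The cutoff is meant to flag about 1 in 20 groups by chance when the libraries of a group vary normally around a single level. That rate does not apply here, since the groups pool both cultures and several plates, and some have few or no counts in most libraries. Whether 22 exceeds chance was not tested. Values are CPM, with the range of the other libraries of the group.

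The day 7 co-culture wells of plate 1 gave 5 of these. With phenobarbital, Gsta2 was 21.2 (others 264 to 454) and Tnc 24.6 (others 2.31 to 7.20). With ketoconazole, Cyp4a2 was 29.1 (others 0 to 1.17), Cyp2b2 87.3 (others 0 to 0.401) and Gsta2 15.2 (others 75.6 to 183). Monoculture ketoconazole wells of plate 5 gave 6 more. On day 1 Chac1 was 6.11 (others 16.9 to 39.3), Herpud1 155 (others 442 to 928) and Npc2 75.0 (others 241 to 334). On day 3 Ddit3 was 41.1 (others 221 to 674) and Npc2 118 (others 345 to 699), and on day 7 Fgf21 was 1.21 (others 7.57 to 22.2). The libraries of days 1 and 3 are among the 4 of low correlation with their group.

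The others with phenobarbital were Srebf2 at 371 in monoculture plate 1 on day 1 (others 102 to 165), Sox9 at 0 in the same well (others 1.76 to 10.8), Tnc at 1.71 in co-culture plate 3 on day 1 (others 0 to 0.400) and Cyp3a23/3a1 at 10.1 in monoculture plate 1 on day 7 (others 0 to 0.968). On day 3 they were Cyp2b2 at 1.08 in co-culture plate 5 (others 0 to 0.140) and Acta2 at 0.0850 in co-culture plate 7, where all others were 0. With ketoconazole they were Pdk4 at 0.709 in monoculture plate 1 on day 3, Acot1 at 0.730 in monoculture plate 7 on day 1 and 0.761 in co-culture plate 5 on day 3, Osgin1 at 233 in co-culture plate 5 on day 3 (others 161 to 190) and Tmem117 at 0.346 in co-culture plate 5 on day 1.

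The phenobarbital-ketoconazole log2 difference itself differed between day 3 and day 1, by edgeR's interaction test, for Adam19 (-4.64), the probe deposited as LOC6848710.0000007 (-2.56), Adgrg6 (-4.25), Megf9 (1.91) and Mmp15 (1.80), and between day 7 and day 1 for Trim15 (3.62).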

How the results depend on the processing

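No named gene that passed in the main fit or in the alternative changed sign between them. Sign changes of genes that passed in neither were not counted. With other size factors (RLE), counts stayed within 1.5 times of the reported ones, except 2 for the day 7 minus day 1 difference, and a library minimum of 2000000 counts changed nothing. DESeq2 called 810, 981 and 814 probes on days 1, 3 and 7, and 132, 77 and 2 for the differences of day 3 minus day 1, day 7 minus day 1 and co-culture minus monoculture. Without a filter on low counts day 7 gave 82. Without a library minimum day 7 gave 0, and the day differences 5 and 0.

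With no replicate block the counts were 1357 over all days, 105, 343 and 0 by day and 0 and 0 for the day differences. With the replicate block by matched pairs they were 1259, 163, 163 and 0, and 20 and 0, with 1119 of the 1459 probes shared; 11 named genes no longer passed and 2 came to pass.

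In co-culture only, counts were 190 over all days, 0 on each day and 0 for each day difference, with 3002 for phenobarbital against vehicle and 585 for ketoconazole. In monoculture only they were 153, then 0, 0 and 12 by day, 0 for each day difference, and 2145 and 873 against vehicle. These fits hold fewer libraries. Of the named genes 69 and 68 no longer passed.

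Without 1 plate in turn, counts ran from 516 to 1116 over all days, 13 to 648 on day 1, 14 to 467 on day 3 and 0 to 215 on day 7. They ran from 0 to 46 and 0 to 1 for the day differences, and stayed at 0 between cultures. Against vehicle they ran from 2682 to 5181 with phenobarbital and from 1593 to 2346 with ketoconazole. Without plate 1, 3, 5 or 7, 14, 17, 21 and 32 named genes no longer passed. Without the libraries of low correlation the counts were 2491, with 52.9% of calls higher against 40.0%, then 880, 809 and 0 by day, and 4 and 0 for the day differences. Without both day 7 co-culture libraries of plate 1, day 7 gave 208 and its difference from day 1 gave 2, and without the ketoconazole one alone day 7 gave 270. With the share of the 50 highest probes as a covariate, days 1, 3 and 7 gave 457, 1878 and 0, and the day 3 difference 105; 927 of the 1459 probes were shared, and 3 mesenchymal and 4 lysosomal probes were lower in place of 10 each. The cause of these shifts was not tested.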
